A study of Mus musculus with 19 samples.

Results

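The miRNAs described here were the muscle-enriched families miR-1, miR-133 and miR-206, measured in the soleus, the extensor digitorum longus (EDL) and the nucleus accumbens (NAc) of mice from a high-active and a low-active inbred strain. Members were taken as every mouse miRNA on the array whose name read miR-1a, miR-133a, miR-133b or miR-206 with any arm suffix. The rule found 9 members among the 1136 miRNAs on the array, which include some viral entries. The members were mmu-miR-1a-3p, mmu-miR-1a-1-5p, mmu-miR-1a-2-5p, mmu-miR-133a-3p, mmu-miR-133a-5p, mmu-miR-133b-3p, mmu-miR-133b-5p, mmu-miR-206-3p and mmu-miR-206-5p. The rule used names only and no signal.

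Each array held RNA of 1 mouse on a 1-colour (Cy3) Agilent miRNA chip, and 19 arrays of 8 mice (4 per strain) on 3 slides were analysed. High-active C57L/J mice gave 4 soleus, 2 EDL and 4 NAc arrays. Low-active C3H/HeJ mice gave 2 soleus, 4 EDL and 3 NAc arrays. All mice entered the study at 8 weeks of age, lived alone for 1 week with a wheel that was locked, received no treatment and were thus 9 weeks old at sampling, so the groups differ by inbred strain and the mice had not run on the wheels. Each strain is represented by a single inbred line, the methods describe male mice chosen by RNA quality, and some arrays were removed by the study for uneven signal. Of the mice, 4 gave both a soleus and an EDL array (low-active mice 194 and 195, high-active mice 225 and 227).

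The tissue labels were checked against marker miRNAs. miR-124-3p, which defines neurons, was detected on 7 of 7 NAc arrays and on 0 of 12 muscle arrays, and all 6 miRNAs of the neuron list were detected on every NAc array against 1 to 3 of them on muscle arrays. Between 242 and 392 miRNAs were detected per array, and no member spot was saturated. Values are log2 of scaled spot intensity. Every p-value reflects only the spread between arrays, whose number limits the precision. Within 1 tissue each array is another mouse. In fits over both muscles, 4 mice entered with both muscles, and their arrays were treated as independent unless the mouse is named as a block.

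miR-1, miR-133 and miR-206 are known as myomiRs. miR-1 and miR-133 are made together from shared primary transcripts in heart and skeletal muscle, where miR-1 favours differentiation of muscle cells and miR-133 their proliferation, whereas miR-206 is restricted to skeletal muscle and is known to be enriched in slow fibres and to take part in the upkeep of the neuromuscular junction. The soleus is a postural muscle rich in slow, oxidative fibres, and the EDL is a fast muscle of the lower leg.

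RefSeq (GRCm38.p6) gave mature sequences for 5 of the 9 members. The 3p arm of each hairpin carries most of the activity of these families. The 3p arms of miR-206 and miR-133b come from neighbouring hairpins. They are shown because their probe signals moved in opposite directions between the muscles. The 5p arms of miR-206 and miR-1a-1 are shown because they differ at few positions. Capitals mark the seed, bases 2 to 8 from the 5′ end, which pairs with target transcripts.
miR-206-3p: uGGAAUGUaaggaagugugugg
miR-133b-3p: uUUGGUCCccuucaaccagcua
miR-206-5p: aCAUGCUUcuuuauauccucaua
miR-1a-1-5p: aCAUACUUcuuuauaugcccaua
miR-133b-5p: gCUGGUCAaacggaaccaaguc
The seed GGAAUGU of miR-206-3p occurred in 2 other mature entries of the 1679 in that table (miR-6349 and miR-6382), and the other 4 seeds were shared with 0 other entries. These counts cover only miRNAs the table lists. The 3p arms of miR-1 and miR-206 are known to share a seed, as are those of miR-133a and miR-133b, and the table gave no sequence for miR-1a-3p or miR-133a-3p. Counted from the 5′ end, with the base of miR-1a-1-5p first, the 5p arms of miR-1a-1 and miR-206 were identical at 20 of 23 positions and differed by A5G, G17C and C19U.

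Mir206 and Mir133b lie on the plus strand of chromosome 1, 3686 bases apart, inside the long non-coding RNA gene Lincmd1 (chr1:20669882-20682958, GRCm38.p6), which is known as a transcript of differentiating muscle cells. In the hairpins printed next, capitals mark both mature arms, to show where the arms that the probes read lie in each precursor.
Mir206, chr1:20679010-20679082: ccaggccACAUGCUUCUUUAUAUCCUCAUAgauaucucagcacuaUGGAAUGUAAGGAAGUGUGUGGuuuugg
Mir133b, chr1:20682769-20682887: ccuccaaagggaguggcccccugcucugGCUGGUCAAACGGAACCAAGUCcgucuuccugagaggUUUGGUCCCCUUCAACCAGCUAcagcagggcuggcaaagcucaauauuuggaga
miR-206-3p occupies chr1:20679055-20679076 and miR-133b-3p chr1:20682834-20682855. Mir1a-1 and Mir133a-2 lie 9254 bases apart on chromosome 2, inside the long non-coding RNA gene Mir1a-1hg (chr2:180385604-180401802), with miR-1a-1-5p at chr2:180389057-180389079. miR-133a-3p and miR-133b-3p are known to be near-identical, and how far their probes read each other was not tested.

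In both muscles the 3p arms of miR-1a, miR-133a and miR-133b gave signals 665 to 2065 times those in the NAc, and miR-206-3p was measured on every muscle array. miR-1a-3p, miR-133a-3p and miR-133b-3p were detected on 19 of 19 arrays. miR-206-3p was detected on 12 of 12 muscle arrays and on 1 of 7 NAc arrays. The passenger arms miR-133a-5p and miR-1a-1-5p were detected on 12 of 12 muscle arrays and 0 of 7 NAc arrays. miR-1a-2-5p was detected on 2 EDL arrays (high-active mouse 225 and low-active mouse 197), and miR-133b-5p and miR-206-5p were detected on 0 of 19. The signal of 1 miRNA was not set against that of another, since each has its own probes.

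With all 19 arrays scaled together, the log2 signal of miR-1a-3p was 17.63 ± 0.03 in high-active EDL (SD, n = 2), 17.48 ± 0.30 in low-active EDL (n = 4), 17.27 ± 0.17 in low-active soleus (n = 2) and 17.18 ± 0.13 in high-active soleus (n = 4). It was 7.89 ± 1.28 in low-active NAc (n = 3) and 7.40 ± 0.10 in high-active NAc (n = 4). Neighbouring muscle groups in that order lay within the larger of their SDs, and so did the NAc groups.

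miR-133a-3p and miR-133b-3p kept the order EDL above soleus above NAc. miR-133a-3p had a log2 signal of 17.79 ± 0.21 in high-active EDL, 17.54 ± 0.34 in low-active EDL, 17.07 ± 0.13 in low-active soleus, 17.04 ± 0.27 in high-active soleus, 7.57 ± 1.40 in low-active NAc and 6.78 ± 0.15 in high-active NAc. For miR-133b-3p the same groups gave 18.13 ± 0.24, 17.89 ± 0.32, 17.50 ± 0.13, 17.43 ± 0.23, 8.05 ± 1.33 and 7.19 ± 0.20. For both miRNAs the strains lay within the larger SD of each other in each tissue.

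miR-206-3p had another order, with the soleus on top. Its log2 signal was 15.35 ± 0.36 in high-active soleus, 14.52 ± 0.30 in low-active soleus, 11.77 ± 0.60 in low-active EDL and 11.49 ± 0.08 in high-active EDL. The soleus groups were further apart than either SD, and the EDL groups were not. The passenger arm miR-133a-5p gave 12.21, 11.90, 11.67 and 11.66 in high-active EDL, low-active EDL, high-active soleus and low-active soleus, and miR-1a-1-5p gave 8.14, 7.76, 7.20 and 7.31 in the same order of groups.

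**Figure D1:**
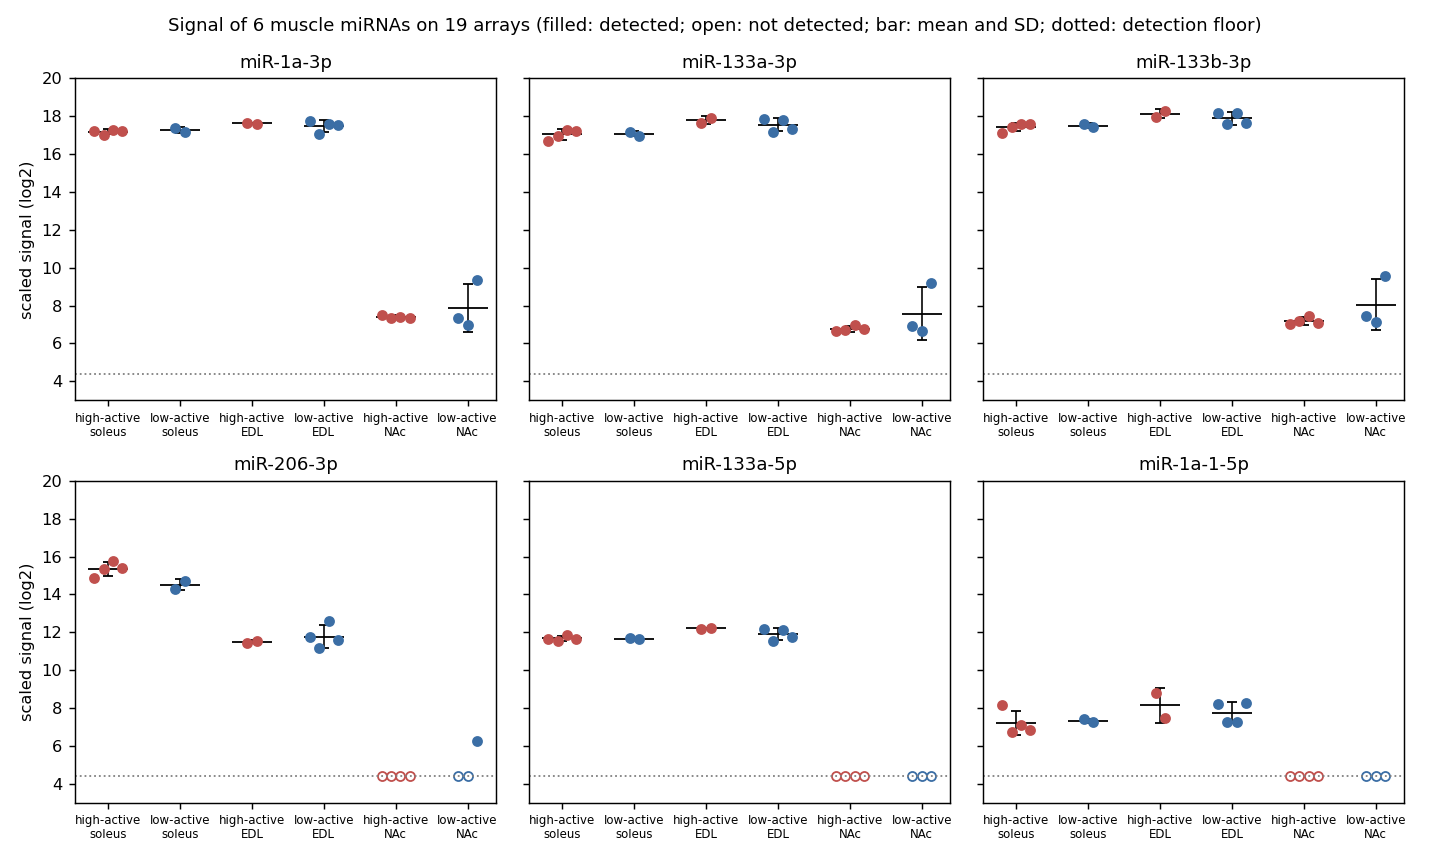
Log2 scaled signal (y axis) of 6 members in the 6 groups of strain and tissue (x axis), all 19 arrays scaled together; each point is 1 mouse, filled where detected, open where not, black bars are the mean and SD of groups detected on every array, and the dotted line is the detection floor at 4.41. The 3 panels of the upper row show EDL and soleus between 16.69 and 18.30 and the NAc between 6.64 and 9.58, and the panel of miR-206-3p shows the soleus above the EDL.

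Expressed as a fold within 1 strain, muscle exceeded the NAc by 665- to 1202-fold for miR-1a-3p, by 720- to 2065-fold for miR-133a-3p and by 696- to 1965-fold for miR-133b-3p. The low ends came from low-active mice, where the NAc array of mouse 197 raised the mean. Without it the low-active soleus exceeded the NAc by 1102-, 1257- and 1181-fold for these 3 miRNAs and the low-active EDL by 1278-, 1750- and 1544-fold. Where an NAc array was not well above background, it was set to the highest of the common detection floor, its own lowest detected signal and the signal of the probe itself, and the fold is a lower bound. For miR-206-3p in high-active mice it was at least 1967-fold for the soleus and at least 136-fold for the EDL. In low-active mice, where 1 of the 3 NAc arrays (mouse 197) measured it, the bounds were at least 671-fold and at least 99.7-fold, and without that array at least 988-fold and at least 147-fold. For miR-133a-5p the bounds lay from at least 142-fold to at least 224-fold, and for miR-1a-1-5p from at least 6.95-fold to at least 13.3-fold. These folds describe levels and were not tested. In RNA of a whole tissue, fewer cells of a type and less RNA per cell cannot be told apart.

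Signal of the muscle miRNAs in the NAc was low on 6 arrays and higher on 1, that of low-active mouse 197. On the 19-array scale miR-133a-3p gave log2 signals of 6.66, 6.70, 6.99 and 6.76 in high-active mice 223, 224, 225 and 227, and 6.90, 6.64 and 9.18 in low-active mice 194, 195 and 197. miR-133b-3p gave 7.05, 7.17, 7.47 and 7.06 against 7.44, 7.14 and 9.58, and miR-1a-3p gave 7.53, 7.32, 7.42 and 7.32 against 7.34, 6.98 and 9.35. In each series the last value, from mouse 197, stood apart and the other 6 overlapped between strains.

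The array of mouse 197 exceeded the median of the other 6 by 2.45 for miR-133a-3p, 2.42 for miR-133b-3p and 2.02 for miR-1a-3p on the log2 scale, which were the 1st, 2nd and 7th largest excesses among the 391 miRNAs tested in the NAc. It was also the NAc array on which miR-206-3p was detected, at 6.24, while miR-133a-5p and miR-1a-1-5p stayed undetected there. These levels lay 8.14, 8.06, 8.18 and 5.33 log2 units below those of the same mouse's EDL for miR-133a-3p, miR-133b-3p, miR-1a-3p and miR-206-3p.

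Other miRNAs on that array were read beside these. Of the list of 11 other muscle miRNAs on the chip, miR-208b-3p, miR-499-5p and miR-486-3p were not detected, and miR-378a-3p was at 7.37, within the 7.03 to 7.74 of the other 6. No entry of the chip was found under the name miR-486-5p, so these values do not cover that arm. Of the 4 vessel miRNAs, miR-145a-5p was above the other arrays at 7.48 against 6.47 to 7.06, and miR-126-3p, miR-126-5p and miR-143-3p lay within their range. Of the 3 red cell miRNAs, miR-144-3p was above them at 5.43 against undetected to 4.54, and miR-451a, at 12.83, and miR-144-5p lay within their range. Of the 6 neuronal miRNAs, miR-128-3p (14.64 against 15.01 to 15.50), miR-124-3p (14.56 against 14.62 to 15.01) and miR-9-3p (13.11 against 13.15 to 13.47) were below the other arrays, and miR-9-5p, miR-137-3p and miR-138-5p lay within their range. Of the 7 epithelial miRNAs, miR-205-5p was undetected and the others lay within the range of the other 6 arrays. For miR-200b-3p that range ran from undetected to 12.44. The excesses of miR-429-3p, miR-200b-3p, miR-200a-3p and miR-200c-3p over the median of those arrays were 2.29, 2.20, 2.19 and 1.78. They were the 4th, 5th, 6th and 8th largest of the 391 miRNAs. Those of miR-141-3p and miR-203-3p were 1.35 and 0.22. The part of these in the muscle miRNA signal was not tested.

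**Figure D2:**
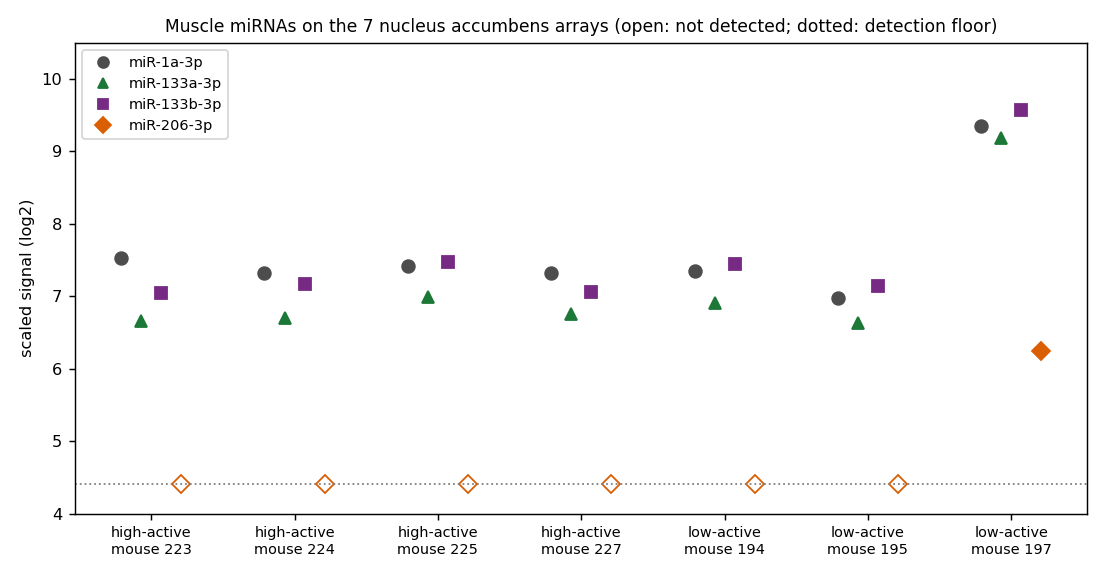
Log2 scaled signal (y axis) of miR-1a-3p, miR-133a-3p, miR-133b-3p and miR-206-3p on the 7 NAc arrays (x axis, 1 mouse each), filled where detected and open at the dotted detection floor where not. Low-active mouse 197 lies above the other 6 arrays for all 4 miRNAs, at 9.35, 9.18, 9.58 and 6.24.

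Over the 7 NAc arrays the miRNAs most like miR-133a-3p among 390 candidates were miR-133b-3p (Pearson r = 0.996, Spearman rho = 0.893), miR-1a-3p (0.979 and 0.536) and miR-145a-5p (0.817 and 0.536). For miR-133b-3p they were miR-133a-3p, miR-1a-3p (0.964 and 0.357) and miR-34c-5p (0.797 and 0.607), and for miR-1a-3p they were miR-133a-3p, miR-133b-3p and miR-145a-5p (0.897 and 0.821). Mouse 197 alone holds the high end of each of these relations, and the points share arrays and slides.

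Soleus and EDL were then compared to see how the myomiRs are set in a slow and a fast muscle. The 12 muscle arrays were scaled together and fitted with limma as 4 groups, and the difference is the mean over both strains of soleus minus EDL. miR-206-3p was higher in the soleus by 9.32-fold, and the 3p arms of miR-133a, miR-133b and miR-1a and the passenger arm miR-133a-5p were lower by 1.62-, 1.54-, 1.33- and 1.39-fold. Of the 6 members detected often enough to be tested, 1 rose, 4 fell and 1 did not pass. Over all 309 miRNAs tested, 72 passed at an adjusted p under 0.05 (23.3%), 21 of them higher (6.8%) and 51 lower (16.5%) in the soleus. The median difference of the 6 members was -0.55 on the log2 scale, beside -0.06 over all 309.

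miR-206-3p, on the 12-array scale, had log2 signals of 14.73, 15.25, 15.58 and 15.32 in the soleus of high-active mice 223, 224, 225 and 227, and of 14.12 and 14.49 in that of low-active mice 194 and 195. In the EDL it had 11.39 and 11.40 in high-active mice 225 and 227, and 11.57, 11.14, 12.46 and 11.57 in low-active mice 194, 195, 196 and 197. Every soleus array lay above every EDL array, with mouse 194 the lowest soleus and mouse 196 the highest EDL. The difference was 3.22 (SE 0.24, 95% interval 2.70 to 3.74, limma adjusted p = 3.64e-06), the third highest of the 309. Soleus arrays lay wholly above EDL arrays for 3.88% of the miRNAs tested and wholly below for 8.74%.

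In the 4 mice that gave both muscles, the soleus of the same animal held more miR-206-3p each time, by 5.86-fold in mouse 194, 10.2-fold in mouse 195, 18.2-fold in mouse 225 and 15.1-fold in mouse 227. Within slides 1, 2 and 3 the log2 difference of plain means was 3.76, 2.88 and 3.25. Slide 1 held both muscles of both strains. Slide 2 held EDL of low-active mice alone and slide 3 soleus of high-active mice alone, so their values mix muscle with strain. The same holds for the slide values of miR-133a-3p and miR-1a-3p below. With the mouse as a fixed block it was 3.50 (adjusted p = 0.00178). Both of its probes gave the same direction, with 3.22 and 3.31.

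miR-133a-3p moved the other way. On the same scale the soleus gave 16.54, 16.88, 17.11 and 17.13 in high-active mice 223, 224, 225 and 227 and 16.98 and 16.73 in low-active mice 194 and 195, and the EDL gave 17.60 and 17.79 in mice 225 and 227 and 17.65, 17.17, 17.71 and 17.33 in mice 194 to 197. Every soleus array was below every EDL array, the nearest being the soleus of mouse 227 and the EDL of mouse 195. The difference was -0.70 (SE 0.16, 95% interval -1.04 to -0.35, adjusted p = 0.00749), and in the 4 mice with both muscles it was -0.67, -0.44, -0.50 and -0.66. Within slides 1, 2 and 3 it was -0.56, -0.68 and -0.93.

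The probe signal of miR-133b-3p, whose hairpin lies beside that of miR-206, followed that of miR-133a-3p and not that of its neighbour. The soleus arrays of miR-133b-3p lay between 16.95 and 17.51 and its EDL arrays between 17.58 and 18.15, without overlap. The difference was -0.63 (SE 0.15, adjusted p = 0.00949), and all 4 mice with both muscles had the lower value in the soleus. miR-133a-3p and miR-133b-3p had r = 0.994 over the 12 muscle arrays. How far the probes of these near-identical miRNAs read each other was not tested, so their signals cannot be told apart here.

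miR-1a-3p differed least among the members that passed. Its arrays lay between 16.90 and 17.21 in the soleus and between 17.05 and 17.61 in the EDL and so overlapped, with a difference of -0.41 (SE 0.13, adjusted p = 0.0406) that was -0.25, -0.43 and -0.51 within the 3 slides. The passenger arm miR-133a-5p fell by 0.47 on the log2 scale (SE 0.12, adjusted p = 0.0142), with soleus arrays from 11.41 to 11.65 and EDL arrays from 11.53 to 12.16. miR-1a-1-5p was at -0.77 (SE 0.34, 95% interval -1.52 to -0.02, adjusted p = 0.142) and did not pass, with arrays from 6.62 to 7.98 and from 7.16 to 8.75. Each of these 3 was lower in the soleus in all 4 mice with both muscles.

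The decreases of the miR-1 and miR-133 arms held less firmly than the increase of miR-206-3p. With the mouse as a fixed block, miR-133a-3p was at -0.57 (adjusted p = 0.0905), miR-133b-3p at -0.53 (0.0969), miR-133a-5p at -0.40 (0.172) and miR-1a-3p at -0.33 (0.233), and without scaling between arrays miR-206-3p alone of the members passed. Without the low-active soleus array of mouse 195, 1 member passed and the count over all miRNAs was 37.

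**Figure D3:**
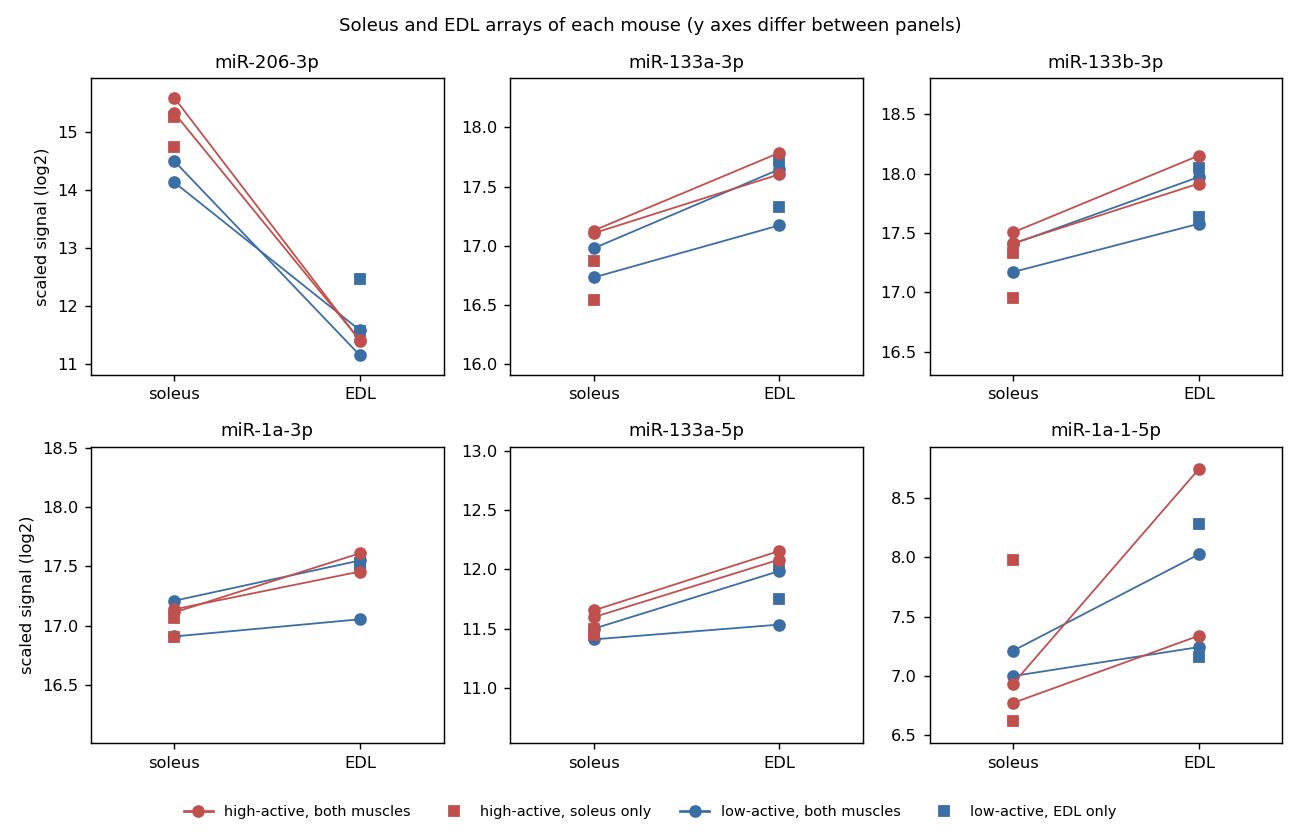
Log2 scaled signal (y axis, with its own limits in each panel) of 6 members in soleus and EDL, the 12 muscle arrays scaled together; circles joined by a line are the muscles of 1 mouse, squares are mice with 1 muscle measured, red is high-active and blue low-active. The lines of miR-206-3p descend from the soleus to the EDL in all 4 mice, and those of the other 5 members ascend.

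Within each strain the direction of miR-206-3p was the same. In high-active mice, 49 of 309 miRNAs passed (15.9%), 17 higher (5.5%) and 32 lower (10.4%) in the soleus, and of the 6 members 1 was higher and 3 lower. miR-206-3p was higher by 3.82 (SE 0.33, adjusted p = 2.17e-05), and miR-133a-3p fell by 0.78 (0.0368), miR-133b-3p by 0.73 (0.0378) and miR-133a-5p by 0.57 (0.0443), whereas miR-1a-3p at -0.48 (0.108) and miR-1a-1-5p at -0.97 (0.244) did not pass. With the mouse as a fixed block the 3 decreases did not pass (adjusted p = 0.217, 0.216 and 0.294), and miR-206-3p did, at 4.05 (0.0047). Leaving out 1 array in turn left 1 to 3 members past the test in this strain.

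In low-active mice 14 of 309 passed (4.53%), 4 of them higher (1.29%), and of the members miR-206-3p passed, at 2.62 (SE 0.33, adjusted p = 0.000861). miR-133a-3p was at -0.61 (0.139), miR-133b-3p at -0.52 (0.168), miR-133a-5p at -0.37 (0.245), miR-1a-3p at -0.34 (0.338) and miR-1a-1-5p at -0.57 (0.574). The test of the difference between the strains called 0 of 309 miRNAs (0%) in limma, with 13 at an unadjusted p under 0.05. For miR-206-3p the muscle difference was larger in high-active mice by 1.20 (95% interval 0.17 to 2.24, unadjusted p = 0.0270, adjusted p = 0.843), and this was the 1 member among the 13.

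Other miRNAs known for muscle were read from a list, of which 11 were on the chip and 5 were detected often enough. miR-208b-3p reached that number through the soleus arrays alone and is given without a test, and of the other 4, 1 was higher in the soleus, 2 were lower and 1 did not pass. miR-499-5p and miR-208b-3p lie within genes of slow myosin heavy chains. miR-499-5p ranged from 9.76 to 10.79 in the soleus and from 5.01 to 6.23 in the EDL, a difference of 4.52 (adjusted p = 2.86e-07). miR-208b-3p ranged from 7.13 to 9.07 in the soleus and was not detected on any of the 6 EDL arrays, which makes it at least 11.5-fold higher. These 2 and miR-206-3p were well above the EDL on every soleus array.

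miR-486-3p, from an intron of an ankyrin gene, was lower in the soleus, at a difference of -1.07 (adjusted p = 0.00487), with 6.28 to 7.24 against 7.42 to 8.40. miR-378a-3p, from a gene of a mitochondrial coactivator, was at -0.78 (adjusted p = 0.0107), and its other arm miR-378a-5p was at -0.04 and did not pass. With the mouse as a fixed block, miR-486-3p was at -0.87 (adjusted p = 0.0666) and miR-378a-3p at -0.63 (0.0905), and neither passed.

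Over the 12 muscle arrays the miRNAs most like miR-206-3p among 308 candidates were miR-208b-3p (r = 0.968, rho = 0.870), miR-24-3p (0.960 and 0.909) and miR-499-5p (0.957 and 0.867). miR-208b-3p stood at the detection floor on every EDL array and became a candidate through the soleus arrays alone. Its values thus largely restate the split between the muscles. For miR-133a-3p they were miR-133b-3p (0.994 and 1.00), miR-3107-3p (0.974 and 0.972) and miR-486-3p (0.968 and 0.958), and for miR-133b-3p they were miR-133a-3p, miR-3107-3p (0.974 and 0.972) and miR-486-3p (0.971 and 0.958). miR-1a-3p was most like miR-7a-1-3p (0.930 and 0.783), miR-378b (0.924 and 0.860) and miR-434-3p (0.921 and 0.804). How far the probes of miR-3107-3p and miR-486-3p read each other was not tested, so they may not be separate neighbours. The r and rho values describe arrays that fall into 2 muscles and share slides and mice. miR-206-3p and miR-133a-3p, for instance, had r = -0.735 over all 12 arrays but 0.465 within the 6 soleus and 0.475 within the 6 EDL arrays.

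The strain comparison, which is the question the study set out from, passed for 0 members in any tissue. In the soleus, scaled and fitted alone, 4 of 342 miRNAs passed (1.17%) and 0 of the 6 members. miR-206-3p came nearest, with 14.86 to 15.66 in the 4 high-active and 14.30 and 14.56 in the 2 low-active mice, so that the strains did not overlap. Of all 342 miRNAs, 17.3% lay wholly higher and 12.3% wholly lower in high-active soleus, and 17.3% had an unadjusted p under 0.05. miR-206-3p was 1.85-fold higher in high-active mice, a difference of 0.89 (SE 0.24, 95% interval 0.27 to 1.51, unadjusted p = 0.0139, adjusted p = 0.150).

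That difference was 1.1 within slide 1 and 1.08 within slide 2, and it ranked 10th from the highest of the 342. It was positive under 18 of 18 alternative settings, from 0.18 without scaling to 1.14, and passed under 0 of them. These settings include leaving out each array in turn. Before scaling, the low-active soleus arrays were the brighter ones. Their 75th percentiles over the probes detected on all 19 arrays were 1776 and 1786, against 856 to 1440 in high-active soleus. The size of the miR-206-3p difference thus depended on the scaling. Slow-fibre miRNAs moved beside it in the same arrays: miR-208b-3p was higher in high-active soleus by 1.35 (adjusted p = 0.0914) and miR-499-5p by 0.55 (adjusted p = 0.210), neither past the threshold, and their part in the miR-206-3p difference was not tested. The other 5 members differed by -0.05 to 0.07 between strains in the soleus.

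In the EDL, 1 of 330 miRNAs passed (0.303%) and 0 of the 7 members tested, none of them at an unadjusted p under 0.05. miR-206-3p was at -0.29 (95% interval -1.14 to 0.56), with 0.30 within slide 1 and -0.26 within slide 3. The other members were miR-133a-3p at 0.23, miR-133b-3p at 0.23, miR-133a-5p at 0.30, miR-1a-3p at 0.13, miR-1a-1-5p at 0.37 and miR-1a-2-5p at 0.38. The value of miR-1a-2-5p rests on 1 detected array per strain, since its other EDL arrays stood at the floor of 4.22. Over both muscles, 11 of 309 passed (3.56%) and 0 of the 6 members. There miR-206-3p was at 0.31 (95% interval -0.21 to 0.83, adjusted p = 0.499), and the others lay between 0.06 and 0.20.

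In the NAc, 27 of 391 miRNAs passed (6.91%) and 0 of the 3 members detected on all 7 arrays. miR-133a-3p was at -0.76 (95% interval -2.07 to 0.54), miR-133b-3p at -0.83 (-2.08 to 0.42) and miR-1a-3p at -0.46 (-1.63 to 0.71), high-active minus low-active. Without the array of mouse 197 these became 0.035, -0.076 and 0.26. Within slide 2 they were 0.40, 0.38 and 0.48, and within slide 3, where mouse 197 is the low-active array, they were -2.45, -2.46 and -1.93. The sign of the difference in the NAc thus went with that 1 mouse for miR-133a-3p and miR-1a-3p.

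**Figure D4:**
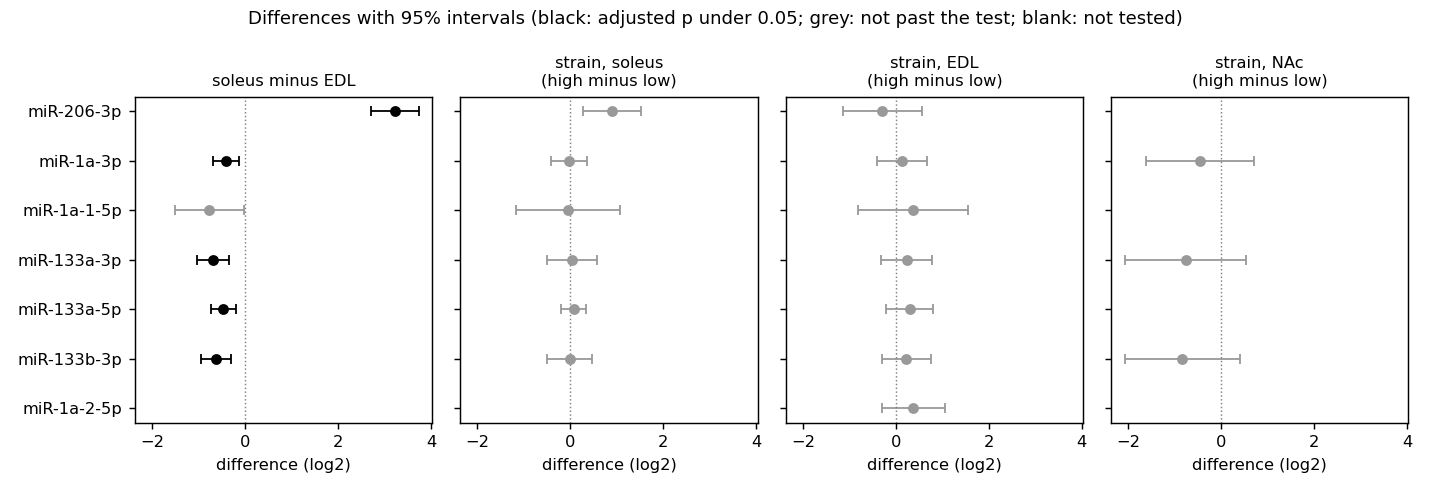
Differences on the log2 scale (x axis) of the tested members (y axis) with 95% intervals from limma, for soleus minus EDL over 12 arrays and for high-active minus low-active in soleus (6 arrays), EDL (6) and NAc (7); black marks an adjusted p under 0.05 and grey a value that did not pass. Black points occur in the soleus minus EDL panel, where miR-206-3p is at 3.22 and 4 members lie between -0.70 and -0.41, and all strain differences are grey.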

How the data were processed

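Total RNA was labelled with Cy3 and hybridised to Agilent mouse miRNA arrays. The authors deposited scanner files with spot intensity already corrected by the scanner software, and a table of the whole series with log2 values they had normalised, whose array medians ran from -0.40 to 0.75 and whose scale and centring are not given in the sources used here. The table served as an alternative only. Its columns rose with the scanner values of the members (r = 0.691 to 0.995).

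Processed spot intensity was averaged over the spots of a probe after control and outlier spots were left out (4.04% to 7.03% of spots per array). A probe was detected where more than 50% of its remaining spots were well above background. Arrays were scaled to a common 75th percentile, taken from those probes that every array of a comparison had detected (594 in NAc, 456 in soleus, 417 in EDL, 401 over both muscles, 328 over all 19). Values under the detection floor, the median over arrays of each array's lowest detected signal, were then set to it (log2 4.60, 4.60, 4.22, 4.37 and 4.41), and the brightest probe stood for each miRNA. The 9 members had 21 of the 2889 probes. A miRNA was tested where it was detected on at least 3 NAc, 2 soleus, 2 EDL or 6 muscle arrays. Differences were tested with limma 3.58.1 in R 4.3.3 (lmFit, eBayes) and adjusted by Benjamini-Hochberg over all miRNAs tested, at 0.05. The steps were also run on simulated data, with planted differences larger than the decreases of miR-1 and miR-133 arms and without shared mice. That run therefore does not bear on those decreases.

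The text names every member, those of the other muscle miRNAs that pass or are the best-known arm, and the 3 miRNAs most like each main 3p arm. Members and lists were chosen with earlier results of these data known. Groups came from the strain and tissue labels.

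Mice that gave both muscles share an animal, so mouse number pairs their arrays. The deviations of the soleus and EDL arrays from their group means correlated at 0.214, 0.527, -0.484 and -0.126 in mice 194, 195, 225 and 227, and the mouse was tried as a fixed and as a random block. Other alternatives were the scaling, normexp background correction (offset 50, on median spot signals, since a mean spot signal was not used here), probe summary, detection filter, floor, variance model, slide as a block, and leaving out each array. RefSeq GRCm38.p6 tables gave sequences and positions.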

Additional observations from a re-analysis of the deposited data

Results flagged for a closer look

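Of the members' values in 17 groups of 4 arrays, 2 had 1 array that stood apart from the other 3, both for miR-1a-2-5p at the edge of detection. In low-active EDL, mouse 197 was at 4.53 on the log2 scale and detected, while the other 3 arrays stood at the floor of 4.22. In high-active soleus, mouse 223 was at 4.90 and not detected, while the other 3 stood at the floor of 4.60. Because the other 3 arrays share the floor value in both groups, any value above it stands apart, and the usual rate of about 1 in 20 groups by chance does not apply.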

How the results depend on the processing

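Between soleus and EDL, miR-206-3p passed under 25 of 25 alternatives (3.13 to 3.54), miR-133a-3p under 20, miR-133b-3p and miR-133a-5p under 18 each, miR-1a-3p under 9 and miR-1a-1-5p under 0. With the mouse as a fixed replicate block, 6 miRNAs and 1 member passed, beside 72 and 5. Counts of all miRNAs past the test were 45 with scaling over all probes, 20 without scaling (19 higher and 1 lower, with the median over all miRNAs at 0.25 in place of -0.06), 44 with quantile normalization, 42 with normexp, 33 with the scanner software's totals and 44 with detection on every array. Members past the test numbered 2 with scaling over all probes and quantile normalization and 1 without scaling or with the totals. Leaving out 1 array gave 37 to 106 miRNAs and 1 to 5 members. The strain difference of soleus against EDL gave 2 miRNAs with the totals and 3 with no detection filter.

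For the strain difference, members past the test stayed at 0 under every alternative, and the counts of all miRNAs moved. In the NAc (27) they were 4 without scaling, 16 with quantile normalization, 10 with normexp, 13 with the totals or slide as a fixed block, 12 with the authors' table, and 8 to 31 with 1 array left out. In the soleus (4) they were 52 without scaling, 18 with the totals, 22 with the authors' table, 2 with probes summed, 1 with scaling over all probes, normexp, detection on every array or slide as a block, and 0 to 6 with 1 array left out. In the EDL (1) they were 3 with scaling over all probes, 2 without scaling, with quantile normalization, a floor at 1 or slide as a block, 4 with the totals, 9 with the authors' table, 0 with normexp or detection on every array, and 0 to 4 with 1 array left out. Over both muscles (11) they were 43 without scaling, 3 with normexp, 22 with probes summed, 21 with no detection filter, 5 with detection on every array, 19 with a floor at 1, and 2 to 20 with 1 array left out.

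Of the differences that changed sign, that of miR-1a-3p in soleus against EDL had passed the test and the others had not. It reached 0.085 under quantile normalization, 0.068 in high-active mice and 0.10 in low-active mice, where miR-133b-3p was at 0.00. Without scaling, low-active mice gave 0.11 for miR-133a-3p, 0.34 for miR-133a-5p, 0.20 for miR-133b-3p, 0.14 for miR-1a-1-5p and 0.37 for miR-1a-3p. In the soleus strain difference, scaling over all probes gave miR-133b-3p 0.24, miR-1a-1-5p 0.20 and miR-1a-3p 0.22. No scaling gave miR-133a-3p -0.68 and miR-133a-5p -0.64. miR-133a-3p was at -0.22 with quantile normalization, -0.030 with normexp, -0.11 with the totals and -0.052 with the authors' table, miR-133a-5p at -0.0059 with the totals, miR-1a-1-5p at 0.16 with normexp and 0.12 with the totals, miR-133b-3p at 0.0021 and miR-1a-3p at 0.0021 with probes summed, and miR-133b-3p at 0.065 with slide as a block. In the EDL, miR-133a-3p was at -0.039 with quantile normalization, miR-1a-2-5p at -0.053 with normexp and miR-206-3p at 0.021 with slide as a block. Over both muscles, no scaling gave miR-133a-3p -0.20, miR-133a-5p -0.15, miR-133b-3p -0.22, miR-1a-1-5p -0.17, miR-1a-3p -0.28 and miR-206-3p -0.0305, quantile normalization gave miR-133a-3p -0.11 and miR-133b-3p -0.053, and slide as a block gave miR-1a-1-5p -0.091.

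With 1 array left out, strain differences in the NAc ran from -1.15 to 0.035 for miR-133a-3p and from -0.83 to 0.26 for miR-1a-3p. In the soleus they ran from -0.15 to 0.21 for miR-133a-3p, -0.029 to 0.17 for miR-133a-5p, -0.19 to 0.16 for miR-133b-3p, -0.44 to 0.11 for miR-1a-1-5p and -0.23 to 0.17 for miR-1a-3p. In the EDL they ran from -0.038 to 0.33 for miR-133a-3p, -0.020 to 0.35 for miR-133b-3p, -0.33 to 1.02 for miR-1a-1-5p and -0.16 to 0.19 for miR-1a-3p. Over both muscles they ran from -0.18 to 0.52 for miR-1a-1-5p and -0.045 to 0.14 for miR-1a-3p, and the strain difference of soleus against EDL from -1.08 to 0.31 for miR-1a-1-5p and -0.29 to 0.014 for miR-1a-3p. The level of muscle over NAc was 10.35 for miR-1a-3p, 10.79 for miR-133a-3p and 10.72 for miR-133b-3p with scaling over all probes, and 9.18, 9.46 and 9.54 with normexp, beside 9.75, 10.18 and 10.11. The cause of these changes was not tested.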
